A study of Mus musculus with 11 samples.

Results

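Nras, Hras, Nf1, Rasa1, Sos1, Braf and Map2k1, 7 genes that encode Ras proteins, their direct regulators and kinases of the MAPK cascade, were examined in sorted mouse hematopoietic stem cells (HSC). The rule that selects them uses their names and no measured value, but the 7 genes were chosen with earlier results of these data known. Each symbol matched 1 Ensembl gene of the mouse build NCBIM37, so the 7 genes made up 7 of the 37991 rows of the count table, and all 7 passed the filter on low counts in every comparison. HSC came from the bone marrow of C57BL/6 mice aged 8 weeks and were gated by the study as Lin-CD48-c-Kit+Sca1+CD135-CD150+. In NA10hd mice, Vav-Cre, which acts in the hematopoietic system, switched on a NUP98-HOXA10HD fusion placed behind a loxP-flanked stop cassette at the ROSA26 locus. In NV mice the same Vav-Cre switched on a mutant NrasG12D allele at the Nras locus, kept beside a normal allele. Control mice are labelled wild type and described as littermates, and whether they carried Vav-Cre or a silent cassette in this experiment is not stated. Each library was made from an aliquot of 1000 sorted cells, with 4 control, 4 NA10hd and 3 NV libraries. The study calls the libraries of a group biological replicates but does not say whether their aliquots came from separate animals, so p-values measure the spread between these libraries.

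Ras proteins are molecular switches that are active when bound to GTP. Exchange factors such as Sos1 load them with GTP, and GTPase-activating proteins such as Nf1 and Rasa1 speed up GTP hydrolysis and so turn them off. Active Ras recruits Raf kinases such as Braf, which phosphorylate the Mek kinases (Map2k1 and Map2k2), which in turn phosphorylate Erk kinases such as Mapk3. In blood-forming tissue this cascade carries signals from cytokine receptors, and mutations that keep Ras active are found in myeloid leukemias. Transcript levels, which are what was measured here, do not report how much of a Ras protein is bound to GTP.

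Nras and Hras are close relatives. Over the 567 coding bases before the stop codon of their annotated reference transcripts (GENCODE annotation of NCBIM37), they were identical at 75.3%, and their longest identical stretch was 23 bases. How the counting treated reads that map to several places is not stated, so a share of reads exchanged between these or other Ras genes was not tested. The counts are sums over each whole gene and do not separate the mutant from the normal Nras allele.

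Library totals ranged from 5464815 to 14283008 counts, and 13859 to 15900 genes had at least 1 count. The sort markers Kit, Ly6a and Slamf1 summed to 605 to 969 CPM (counts scaled to library size with edgeR's TMM factors) in every library, and 9 markers gated against to 6.06 to 22.5 CPM, with Cd2 and Cd3e at 0 throughout. The 6 endothelial markers summed to 341 to 361 CPM in control, 336 to 470 CPM in NA10hd and 160 to 206 CPM in NV libraries, and 5 erythroid markers to 3.99 to 8.06, 2.21 to 3.29 and 10.7 to 23.98 CPM. Cdh5, Hba-a1 and Alas2 were at 0 in NV, and Stab2 and Car1 in NA10hd libraries. The stromal list summed to 2.80 to 25.9 CPM, the megakaryocyte list to 877 to 1146 CPM, the myeloid list to 746 to 1074 CPM (with Ctsg at 0 in all libraries) and the lymphoid list to 42.0 to 107 CPM. The long-term HSC list summed to 752 to 1169 CPM in control, 888 to 1333 CPM in NA10hd and 610 to 752 CPM in NV libraries. The part of these differences in the values below was not tested. NA10hd replicate 4 stood apart: it had the fewest detected genes (13859), and it was the only library with counts of Xist (216) and 0 counts of Y-linked genes. Without it, 0 of the 7 genes were called by edgeR in NA10hd against control, beside 0.0371% of all genes. In NA10hd against NV without it, 0 of the 7 were called beside 5.8% of all genes. All 3 NV libraries and control replicates 2 and 3 held both Xist and Y-linked counts, while NA10hd replicates 1 to 3 and control replicates 1 and 4 held Y-linked counts and 0 counts of Xist. No NA10hd library held both, so this mix and the genotype cannot be told apart in NA10hd against NV. In bulk libraries, fewer cells of a type and less RNA per cell cannot be told apart.

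None of the 7 genes passed the test for a difference between groups. A gene was called at a Benjamini-Hochberg adjusted p under 0.05 in edgeR's quasi-likelihood test over all genes and a fold change above 1.5. In NA10hd against control, 0 of 7 were called, where the share called among all 13060 genes tested was 0.00766%. In NV against control, 0 of 7 were called beside 4.76% of 13462 genes, and in NA10hd against NV, 0 of 7 beside 5.09% of 13461 genes. At an unadjusted p under 0.05, the same edgeR fits held 0, 2 (Nras and Hras) and 1 (Hras) of the 7 in these comparisons, and the corresponding shares of all genes were 11.9%, 19.5% and 19.5%. DESeq2 called 0, 1 and 1 of the 7 (Hras in both cases), beside 1.99%, 6.98% and 10.8% of all genes to which it gave an adjusted p.

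**Figure D1:**
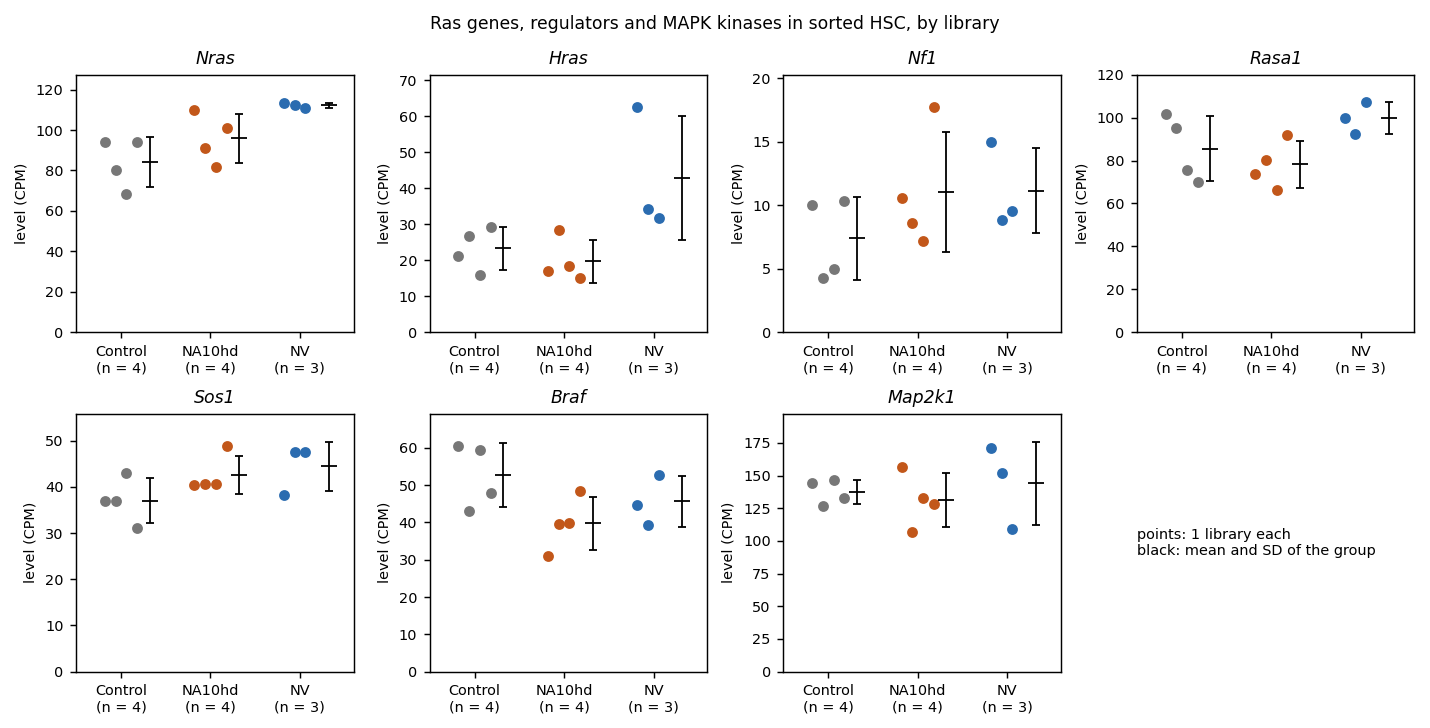
Level of each of the 7 genes in CPM (vertical axis, from 0) in every library of control (4), NA10hd (4) and NV (3) HSC; points are libraries, and black marks are the group mean and SD. All NV points lie above all control points for Nras and Hras, and the groups overlap for the other 5 genes in that comparison.

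Nras (ENSMUSG00000027852, chromosome 3, 102862152 to 102871837), the gene that carries the mutation in NV mice, was read first. It had 93.9, 80.0, 68.3 and 93.8 CPM in the control libraries, 110, 91.0, 81.8 and 101 CPM in the NA10hd libraries and 113, 112 and 111 CPM in the NV libraries. The NV libraries were the most alike, with a coefficient of variation of 1.22% against 14.7% in control. This closeness rests on 3 libraries and 1 gene. Across genes, pairs of NV libraries differed by more than counting noise (chi-square per degree of freedom 15.8 to 23.5). All NV libraries lay above every control and every NA10hd library, while NA10hd and control overlapped. The means were 84.0 ± 12.4 CPM for control and 96.0 ± 12.2 CPM for NA10hd (SD, n = 4 each), and 112 ± 1.37 CPM for NV (SD, n = 3). The log2 fold change of NV against control was 0.41 (95% interval 0.10 to 0.73), a fold of 1.33, which missed both thresholds (edgeR adjusted p = 0.124). NA10hd minus control was 0.20 on the log2 scale (95% interval -0.18 to 0.57, edgeR adjusted p = 0.700), and NA10hd minus NV was -0.23 (95% interval -0.61 to 0.14, edgeR adjusted p = 0.507). The control values split by the Xist and Y-linked mix, with 93.9 and 93.8 CPM in the libraries with Y-linked counts only and 80.0 and 68.3 CPM in those with both. Between libraries of the same mix, the log2 fold change was 0.0050 in NA10hd against control and 0.59 in NV against control (edgeR adjusted p = 0.0884), and neither was called. RefSeq lists a pseudogene, Nras-ps2, and reads shared with it were not tested.

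Hras (ENSMUSG00000025499, chromosome 7, 148375004 to 148379904; Hras1 in the GENCODE annotation) had the largest log2 fold changes of the 7 genes in both comparisons with NV. Control libraries had 21.1, 26.7, 15.96 and 29.4 CPM, NA10hd libraries 17.0, 28.4, 18.4 and 15.1 CPM, and NV libraries 62.6, 34.3 and 31.7 CPM. NV replicate 1 stood far above the others, and even the lowest NV library exceeded all 8 libraries of the other groups. The log2 fold change in NV against control was 0.88 (standard error 0.28, 95% interval 0.27 to 1.49), a fold of 1.84, with an edgeR adjusted p of 0.0971. Without NV replicate 1 it was 0.50 (edgeR adjusted p = 0.382), and DESeq2 on all libraries gave 0.88 with an adjusted p of 0.0355. Between NA10hd and NV the log2 fold change was -1.12 (standard error 0.34, 95% interval -1.86 to -0.38, edgeR adjusted p = 0.0843), which corresponds to 2.18 times as much in NV. This comparison reached an adjusted p of 0.0250 in DESeq2 and of 0.0401 when edgeR was fitted on all 3 groups together, and it was -0.75 (edgeR adjusted p = 0.401) without NV replicate 1. NA10hd and control overlapped, with a log2 fold change of -0.23 (95% interval -0.91 to 0.44, edgeR adjusted p = 0.821). Both comparisons with NV share the NV libraries, and so they are not independent.

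Sos1 (ENSMUSG00000024241, chromosome 17, 80793092 to 80879793) encodes the exchange factor that couples activated receptors to Ras. It had 37.0, 36.9, 43.0 and 31.1 CPM in control, 40.5, 40.6, 40.7 and 48.7 CPM in NA10hd and 38.2, 47.6 and 47.5 CPM in NV libraries. The first 3 NA10hd libraries were nearly equal and replicate 4 was higher, and the groups overlapped in every comparison. Its log2 fold changes against control were 0.21 (95% interval -0.24 to 0.65) in NA10hd and 0.26 (95% interval -0.13 to 0.65) in NV, with edgeR adjusted p of 0.741 and 0.497. NA10hd minus NV was -0.07 (95% interval -0.54 to 0.41, edgeR adjusted p = 0.916).

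Nf1 (ENSMUSG00000020716, chromosome 11, 79153195 to 79395114) encodes neurofibromin, a GTPase-activating protein whose loss leaves Ras active. It rested on the fewest reads of the 7 genes, 45 to 188 counts per library. Control libraries had 10.02, 4.27, 4.95 and 10.4 CPM, NA10hd libraries 10.6, 8.60, 7.18 and 17.8 CPM, and NV libraries 14.98, 8.87 and 9.57 CPM. Control libraries fell into a lower pair, which held both Xist and Y-linked counts, and a higher pair, which held Y-linked counts only. All 3 groups overlapped, and the highest value was NA10hd replicate 4. The log2 fold change was 0.58 (95% interval -0.45 to 1.61, edgeR adjusted p = 0.671) in NA10hd against control and 0.26 (edgeR adjusted p = 0.889) without NA10hd replicate 4. Between the libraries of these groups with Y-linked counts only, it was -0.22 and not called. Between NV and control it was 0.60 (95% interval -0.26 to 1.46, edgeR adjusted p = 0.466), with 0.32 (edgeR adjusted p = 0.795) without NV replicate 1 and 1.27 (edgeR adjusted p = 0.176) against the lower control pair alone. These intervals do not exclude a change past 1.5-fold in NA10hd or in NV. NA10hd minus NV was -0.03 (95% interval -1.05 to 0.99, edgeR adjusted p = 0.984), and its sign turned without NV replicate 1 (0.24) and without NA10hd replicate 2 or 3. The annotated exons of Nf1 overlap no exon of Omg, Evi2a or Evi2b, which lie within its body on the opposite strand.

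Rasa1 (ENSMUSG00000021549, chromosome 13, 85354304 to 85429091), the p120 GTPase-activating protein, had 101, 95.4, 75.7 and 69.9 CPM in control libraries. NA10hd libraries had 73.9, 80.4, 66.4 and 91.9 CPM and NV libraries 99.8, 92.3 and 107 CPM. Every NV library lay above every NA10hd library, by 92.3 against 91.9 CPM at the closest, while control overlapped with both. NA10hd minus NV was -0.36 on the log2 scale (95% interval -0.76 to 0.04, edgeR adjusted p = 0.311). Against control it was -0.13 (95% interval -0.53 to 0.28, edgeR adjusted p = 0.838) in NA10hd and 0.22 (95% interval -0.12 to 0.56, edgeR adjusted p = 0.510) in NV. Its annotated exons share 12 bases (0.153% of its exon length) with Ccnh on the opposite strand.

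Braf (ENSMUSG00000002413, chromosome 6, 39553236 to 39675462), a Raf kinase, was the only one of the 7 genes with lower means than control in both genotypes. Control libraries had 60.5, 43.0, 59.4 and 47.8 CPM, NA10hd libraries 31.0, 39.6, 39.9 and 48.4 CPM, and NV libraries 44.8, 39.3 and 52.8 CPM. Of the NA10hd libraries 3 lay below every control library, and replicate 4 overlapped with control, as did NV. The log2 fold change in NA10hd against control was -0.40 (95% interval -0.87 to 0.06), with an unadjusted p of 0.0850 and an adjusted p of 0.492 from edgeR. It was -0.51 (edgeR adjusted p = 0.397) without NA10hd replicate 4. Between NV and control it was -0.21 (95% interval -0.61 to 0.19, edgeR adjusted p = 0.595), and NA10hd minus NV was also -0.21 (95% interval -0.73 to 0.32, edgeR adjusted p = 0.717). Its exons share 146 bases (1.05% of its exon length) with Ndufb2 on the opposite strand, and the strand setting of the counting is not stated.

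Map2k1 (ENSMUSG00000004936, chromosome 9, 64033577 to 64101438), the Mek1 kinase that acts below Raf, had the smallest log2 fold changes of the 7 genes in both comparisons with control. It had 144, 127, 146 and 133 CPM in control, 156, 106, 133 and 129 CPM in NA10hd and 171, 152 and 109 CPM in NV libraries. The control values lay within the ranges of NA10hd and NV, which were wider. The log2 fold changes were -0.07 (95% interval -0.41 to 0.28, edgeR adjusted p = 0.907) in NA10hd against control and 0.06 (95% interval -0.27 to 0.39, edgeR adjusted p = 0.879) in NV against control. Both intervals exclude a change of 1.5-fold. NA10hd minus NV was -0.14 (95% interval -0.58 to 0.30, edgeR adjusted p = 0.773).

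**Figure D2:**
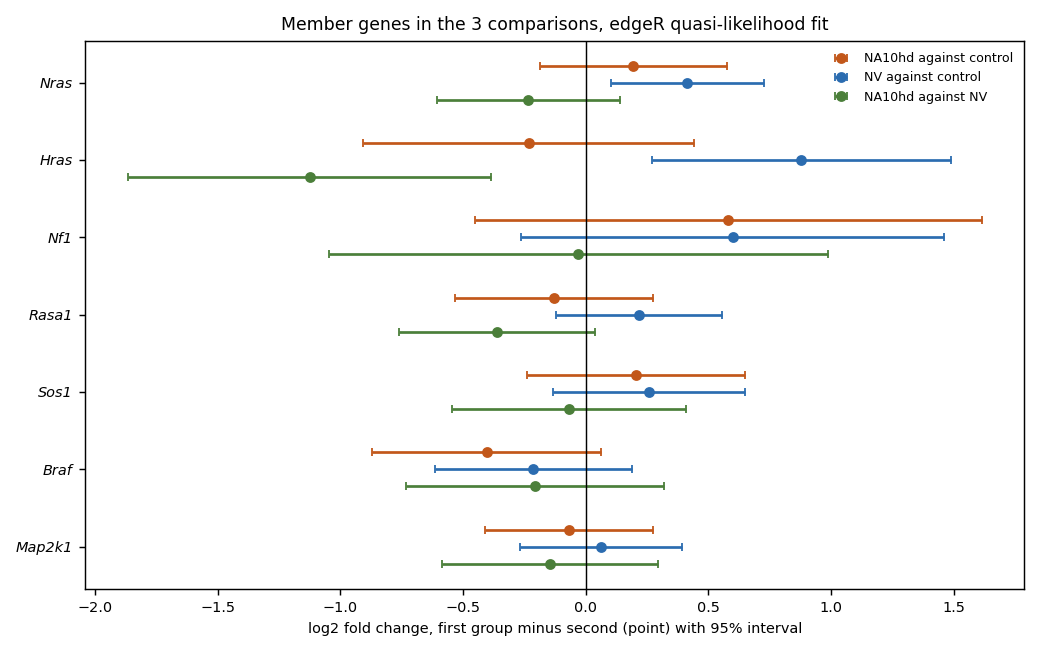
Log2 fold change of each of the 7 genes (horizontal axis, first group minus second) with its 95% interval from edgeR's quasi-likelihood fit, for the 3 comparisons. Intervals that do not reach 0 are those of Nras and Hras in NV against control and of Hras in NA10hd against NV, and none of these genes passed the adjusted threshold.

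Over the 7 genes together, log2 fold changes had a median of -0.07 for NA10hd against control (3 above 0 and 4 below), 0.26 for NV against control (6 above and 1 below) and -0.21 for NA10hd against NV (0 above and 7 below). The corresponding medians over all genes tested were 0.02, -0.01 and 0.01. CPM ranges of the groups did not overlap for 0 of the 7 genes in NA10hd against control, where 7.84% of all genes did not overlap. They did not overlap for 2 (Nras and Hras) in NV against control, beside 18.9% of all genes, and for 3 (Nras, Hras and Rasa1) in NA10hd against NV, beside 21% of all genes. Between libraries of the same Xist and Y-linked mix, 0 of the 7 genes were called by edgeR against control in NA10hd, beside 0% of all genes, and in NV, beside 2.18% of all genes. There, beside the values given above for Nras and Nf1, the log2 fold changes in NA10hd were -0.24 for Hras, -0.22 for Rasa1, 0.25 for Sos1, -0.55 for Braf and -0.07 for Map2k1, and those in NV were 1.01 for Hras, 0.22 for Rasa1, 0.15 for Sos1, -0.17 for Braf and 0.07 for Map2k1. The comparisons share libraries, so these counts are not independent of each other.

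Levels were compared between genes per kilobase of merged annotated exons. In control HSC, Map2k1 was the most abundant per length at 40.6 ± 2.72 CPM per kilobase (SD, n = 4), in the 87.7th percentile of expressed genes. Nras had 18.2 ± 2.67, Rasa1 10.9 ± 1.94, Hras 6.24 ± 1.60, Sos1 4.15 ± 0.545 and Braf 3.80 ± 0.622 CPM per kilobase (SD, n = 4 each). Nf1 was lowest at 0.468 ± 0.205 CPM per kilobase (SD, n = 4), in the 7.84th percentile. In this order, the library ranges of Hras, Sos1 and Braf overlapped with one another, and no other ranges did. NA10hd HSC had the same order, with overlap between Hras and Sos1 only. NV HSC also had it, but there Hras, at 11.5 ± 4.59 CPM per kilobase (SD, n = 3), overlapped with Rasa1 at 12.7 ± 0.940 CPM per kilobase (SD, n = 3). With the longest transcript as the length, Braf stood above Sos1 in control and the order was otherwise the same.

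**Figure D3:**
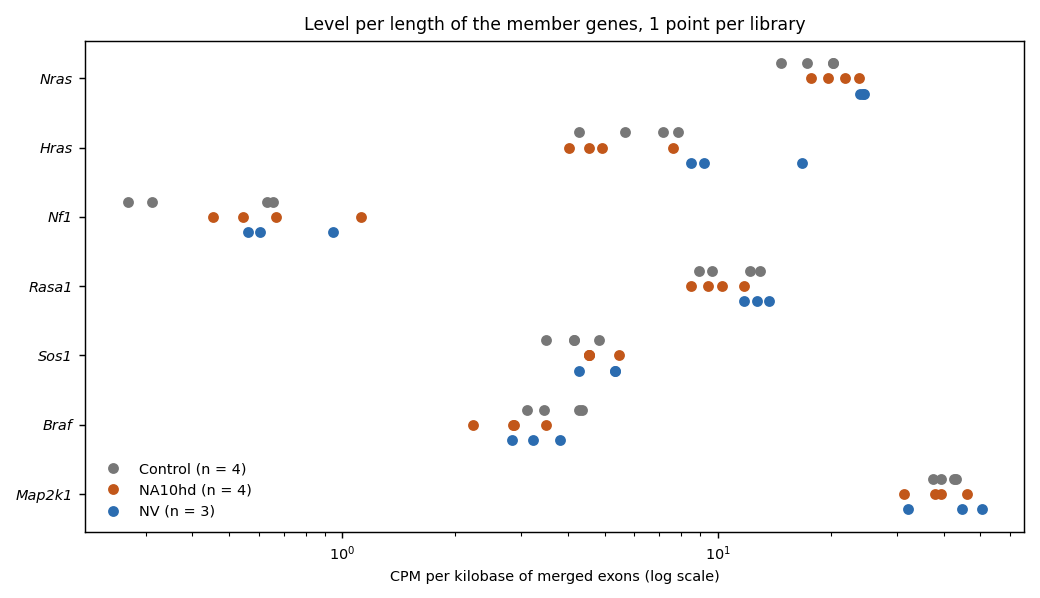
Level of each of the 7 genes per kilobase of merged exons (horizontal log axis, CPM per kilobase), with 1 point per library and the 3 groups in separate rows. Map2k1 is highest and Nf1 lowest in every library, and the NV points of Hras reach into the range of Rasa1.

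The balance between members was also taken within each library, where no scaling between libraries enters. The level per length of Nras exceeded that of Hras in all 11 libraries, by 2.42 to 3.59 times in control, 2.59 to 5.42 times in NA10hd and 1.46 to 2.82 times in NV. On the log2 scale this ratio was 1.57 ± 0.29 for control and 2.01 ± 0.50 for NA10hd (SD, n = 4 each), and 1.15 ± 0.52 for NV (SD, n = 3), and the groups overlapped. The differences from control were 0.44 in NA10hd and -0.42 in NV (two-sided exact permutation tests, p = 0.143 and 0.343, adjusted p = 0.257 and 0.411 over 6 tests), and NA10hd minus NV was 0.86 (exact p = 0.171, adjusted p = 0.257). Without NV replicate 1, the difference of NV from control was -0.12 and NA10hd minus NV was 0.56. The summed level per length of the GTPase-activating genes Nf1 and Rasa1 exceeded that of the exchange factor Sos1 in every library, by 1.96 to 3.27 times. Its log2 ratio was 1.45 ± 0.29 for control and 1.15 ± 0.13 for NA10hd (SD, n = 4 each), and 1.44 ± 0.23 for NV (SD, n = 3). NA10hd minus control was -0.30 (exact permutation p = 0.114, adjusted p = 0.257), NA10hd minus NV was -0.28 (exact permutation p = 0.171, adjusted p = 0.257), and NV minus control was -0.02 (exact permutation p = 0.914, adjusted p = 0.914). The smallest p these designs allow is 0.0286 with 4 against 4 libraries and 0.0571 with 4 against 3, and after adjustment over the 6 tests none of these comparisons could pass the threshold.

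**Figure D4:**
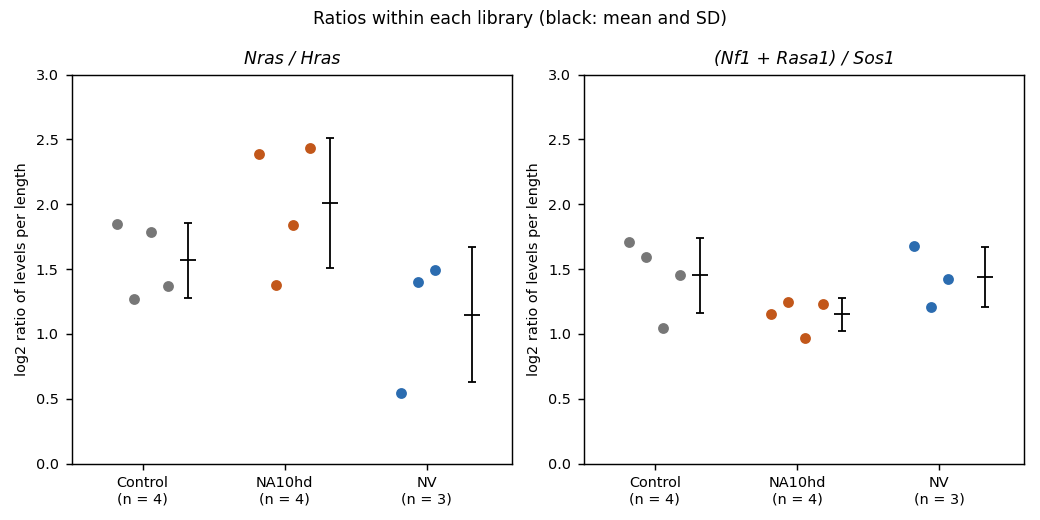
Log2 ratio of levels per length within each library (vertical axis) for Nras over Hras and for the sum of Nf1 and Rasa1 over Sos1, in the 3 groups; points are libraries, and black marks are the mean and SD. All ratios lie above 0, and the lowest Nras to Hras ratio, 0.55, is that of NV replicate 1.

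The other genes of the pathway were taken from 9 lists written from general knowledge, of which 66 genes besides the 7 are reported. Of these, 59 had enough counts to be tested. The 7 that did not were the exchange factors Rasgrp1, Rasgrp4, Rasgrf1 and Rasgrf2, the GTPase-activating gene Rasal1, the scaffold Ksr2 and the effector Plce1. In NA10hd against control, 0 of 59 were called by edgeR beside 0.00766% of all genes (5 at an unadjusted p under 0.05, beside 11.9% of all genes), and DESeq2 called 2 (3.39%, beside 1.99% of all genes). In NV against control, 0 of 59 were called by edgeR beside 4.76% of all genes (13 at an unadjusted p under 0.05, beside 19.5% of all genes), and DESeq2 called 1 (1.69%, beside 6.98% of all genes). In NA10hd against NV, 3 of 59 (5.08%) were called beside 5.09% of all genes, 2 higher in NA10hd (Rras and Rasa4) and 1 lower (Rap1b), 10 had an unadjusted p under 0.05 beside 19.5% of all genes, and DESeq2 called 7 (11.9%, beside 10.8% of all genes). The median log2 fold change over the 59 genes was 0.16, -0.03 and 0.04 in these comparisons.

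The Ras-related GTPase Rras had 59.6, 40.8, 41.5 and 62.1 CPM in control, 64.5, 58.2, 70.4 and 106 CPM in NA10hd and 36.2, 29.5 and 27.9 CPM in NV libraries. All NV libraries lay below all others, and NA10hd and control overlapped. Rras was higher in NA10hd than in NV HSC by a log2 fold change of 1.25 (standard error 0.26, edgeR adjusted p = 0.0193), and its difference from control was -0.71 in NV (edgeR adjusted p = 0.0762; DESeq2, adjusted p = 0.0216) and 0.56 in NA10hd (edgeR adjusted p = 0.377). The call of Rras was lost when any NV library was left out (edgeR adjusted p of 0.0622 to 0.130). Against the control libraries with the same Xist and Y-linked mix, the difference in NV was -0.40 (edgeR adjusted p = 0.412), and that in NA10hd was 0.083 and not called.

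Rasa4, a calcium-responsive GTPase-activating gene, had 20.2, 30.6, 23.9 and 31.0 CPM in control, 46.4, 36.6, 58.2 and 70.8 CPM in NA10hd and 28.4, 10.97 and 20.7 CPM in NV libraries. Every NA10hd library lay above every other library. It was higher in NA10hd than in NV HSC by 1.40 on the log2 scale (standard error 0.36, edgeR adjusted p = 0.0463), and 1.004 above control (edgeR adjusted p = 0.207; DESeq2, adjusted p = 0.0192). With 1 library removed at a time, the call of Rasa4 held only without NA10hd replicate 2 and was otherwise lost (edgeR adjusted p of 0.0572 to 0.189), as it was without TMM factors (edgeR adjusted p = 0.0538). Its relatives among the 7 genes, Nf1 and Rasa1, had log2 fold changes of -0.03 and -0.36 in the same comparison of NA10hd with NV. The rest of the list of GTPase-activating genes did not share the direction of Rasa4. Of the 7 tested there, Rasa4 included, 2 lay above 0 and 5 below, from -1.58 to 1.40 with a median of -0.28.

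Rap1b, a small GTPase that modulates Raf kinases, had 439, 659, 545 and 453 CPM in control, 422, 263, 249.6 and 338 CPM in NA10hd and 519, 638 and 737 CPM in NV libraries. All NA10hd libraries lay below all others, and control and NV overlapped. The means were 524 ± 102 CPM for control and 318 ± 79.7 CPM for NA10hd (SD, n = 4 each), and 631 ± 109 CPM for NV (SD, n = 3). Rap1b was lower in NA10hd than in NV HSC, with a log2 fold change of -0.998 (edgeR adjusted p = 0.0183), and this call was lost without NV replicate 2 or 3 (edgeR adjusted p = 0.101 and 0.129). Its log2 fold change against control was -0.72 in NA10hd (edgeR adjusted p = 0.225; DESeq2, adjusted p = 0.0349) and 0.26 in NV (edgeR adjusted p = 0.396), and between libraries of the same Xist and Y-linked mix it was -0.52 and 0.064.

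Among the kinases beside Braf and Map2k1, Mapk3 (Erk1) had 133, 79.4, 147 and 115 CPM in control, 158, 164, 150 and 174 CPM in NA10hd and 127, 149 and 108 CPM in NV libraries. All NA10hd libraries lay above all others, and control and NV overlapped. The log2 fold change of Mapk3 was 0.45 in NA10hd against control (edgeR adjusted p = 0.370) and 0.33 in NA10hd against NV (edgeR adjusted p = 0.322). Map2k2 (Mek2), the partner of Map2k1, had 110 ± 2.92 CPM for control and 138 ± 26.2 CPM for NA10hd (SD, n = 4 each), and 125 ± 21.0 CPM for NV (SD, n = 3), with adjusted p of 0.466 to 0.777 from edgeR in the 3 comparisons.

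**Figure D5:**
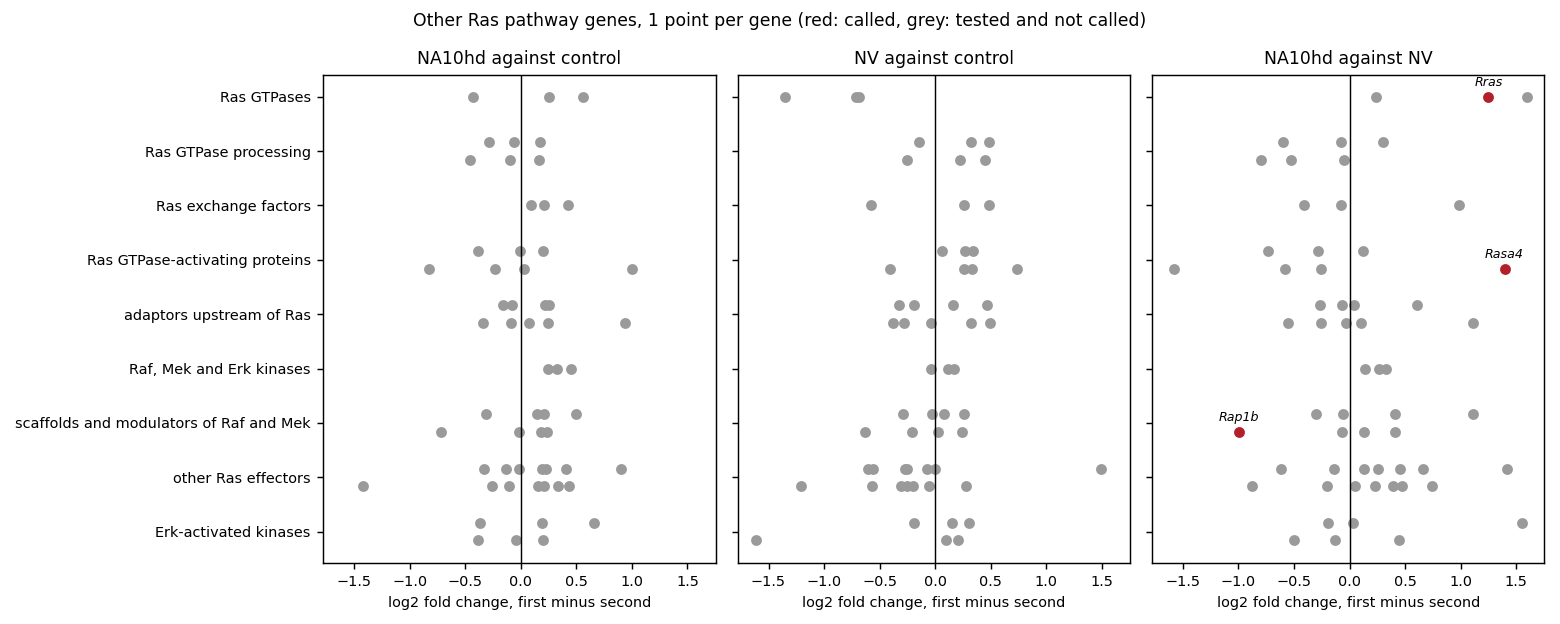
Log2 fold changes of the 59 other pathway genes tested (horizontal axis, first group minus second), 1 point per gene, by list and comparison; red points are called and named. Called genes appear only in NA10hd against NV: Rras and Rasa4 above 0, Rap1b below 0.

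Likeness across the 11 libraries was measured as the root mean square difference of log2 CPM after centring each gene on its mean, over 14012 expressed genes. It is a description, since all values of a library share its depth and preparation. Nras came closest to Asap1 (0.11) and Ikbkg (0.12), Rasa1 to Cnot1 (0.10) and Znrf2 (0.13), Sos1 to 1190007I07Rik (0.11) and Pex6 (0.11), and Map2k1 to AU019823 (0.12) and Tmem214 (0.15). Braf came closest to Elp3 (0.15) and Taf5l (0.17). Hras was 0.28 from the row of Mir142 and 0.29 from Ankrd49, and Nf1 0.28 from Mast4 and 0.30 from Agfg2. These distances grow with how much a gene varies: the root mean square deviation from its own mean was 0.58 for Hras and 0.56 for Nf1, against 0.18 (Sos1) to 0.27 (Braf) for the other 5 genes. Among the 7 genes themselves the smallest distance was that of Nras and Rasa1 (0.24), which was no smaller than the deviation of either gene from its own mean (0.23 each).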

How the data were processed

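HSC libraries were made by the authors from sorted 1000-cell aliquots by cDNA amplification and Nextera XT. Per the labels, reads were aligned to NCBIM37 with HISAT2 and counted per gene with featureCounts, and versions, strand setting and handling of multiply mapped reads are not given in the sources used here. The deposited table holds raw counts for 37991 Ensembl genes, of which 37205 had a symbol in the GENCODE annotation of that build. Libraries were grouped by labelled genotype. Counts were tested with edgeR 4.0.16 in R 4.3.3 (TMM, default filterByExpr, quasi-likelihood test, no block), each comparison on its own libraries. CPM used TMM factors over all 11 libraries. Alternatives were DESeq2 1.42.0, limma-voom (limma 3.58.1), other scalings, filters and thresholds, a joint fit of the groups, a fit with replicate number as a block, libraries with the same Xist and Y-linked mix, and each library left out. The 7 genes, the pathway and marker lists and the rule for named genes (all 7, the partner kinases Map2k2 and Mapk3, any other listed gene called, and the 2 nearest genes by pattern) were chosen with earlier results of these data known. The reads carry no molecular identifiers, and replicates differed by more than counting noise (chi-square per degree of freedom 6.86 to 66.0). A few listed genes and markers are not reported here, and list counts and sums leave them out.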

Additional observations from a re-analysis of the deposited data

Results flagged for a closer look

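In 28 groups of 4 libraries checked, 2 held a library far from the other 3 by Dixon's test at the 95% level, and chance alone gives about 1 in 20. Sos1, the Ras exchange factor, had 48.7 CPM in NA10hd replicate 4, where the other NA10hd libraries had 40.5 to 40.7 CPM. Map2k2, the Mek2 kinase, had 115 CPM in control replicate 1, where the nearest control library had 109 CPM and the farthest 108 CPM. Neither gene was called in any comparison by edgeR.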

How the results depend on the processing

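Most values kept their direction and their side of the threshold. With DESeq2, the number of the 7 genes called was 1 in NV against control and 1 in NA10hd against NV, and the other pathway genes called were 2 in NA10hd against control, 1 in NV against control and 7 in NA10hd against NV, beside 1.99%, 6.98% and 10.8% of all genes. A filter of 10 counts in every library gave 5 of these in NA10hd against NV, beside 7.31% of all genes. With all 3 groups in one edgeR fit, 1 of the 7 genes was called in NA10hd against NV (8.22% of all genes). In NV against control, 1 other pathway gene was called among libraries matched in their Xist and Y-linked counts (2.18% of all genes). Replicate numbers did not pair the libraries (correlations of deviations from -0.09 to 0.03). With a replicate block, 1 other pathway gene was called in NV against control (3.32% of all genes). A test against the fold threshold itself (glmTreat) called 0 of the 59 other pathway genes in NA10hd against NV (1.37% of all genes). Leaving out each library gave 0 to 1 such genes in NV against control (1 without control replicate 4, 3.74% of all genes) and 0 to 4 in NA10hd against NV, where 2 were called without NA10hd replicate 1 or 3, 1 without the first NV library, and 0 without either of the other NV libraries (1.04% to 5.8% of all genes). Log2 fold changes that reversed with a library left out ranged from -0.16 to 0.018 for Map2k1 in NA10hd against control. Against control in NV, they ranged from -0.083 to 0.22 for Map2k1 and -0.040 to 0.23 for Mapk3. Nf1 ranged from -0.35 to 0.24 in NA10hd against NV, and became -0.22 in NA10hd against control with matched libraries. The log2 ratio of Nf1 plus Rasa1 to Sos1 in NV against control became 0.12 with matched libraries and ranged from -0.15 to 0.10 with a library left out. For these changes the cause was not tested. No NA10hd and NV libraries match in this way, so that alternative was not run there.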
